A study of Mus musculus with 9 samples.

Results

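The DEAD box and DEAH box helicases are taken here as the enzymes whose mouse genes are named Ddx or Dhx followed by a number. Peaks of the RNA-binding protein SAFB were located in the transcripts of these genes in mouse embryonic stem cells. The genes were taken by name from the protein-coding genes of GENCODE M21, an annotation of the mm10 assembly: 53 of 21951 genes matched, 37 of them Ddx and 16 Dhx. They held 32 of the 30998 peaks in the authors' list. A peak was given to a gene when its midpoint lay inside the gene and on the gene's strand.

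Helicases of both families use ATP to unwind short RNA duplexes or to strip proteins from RNA, and they take part in nearly every step in the life of an RNA. In the nucleus they drive changes in the spliceosome, the machine that removes introns, and in the nucleolus they remodel the precursors of ribosomal RNA. In the cytoplasm they act in translation, in RNA decay and as sensors of viral RNA. SAFB proteins are nuclear and are described as preferring purine-rich RNA, that is RNA rich in A and G.

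The study recovered RNA by immunoprecipitation and sequenced it (RIP-seq) in 9 libraries from a male CAST/B6 Rosa26-RMCE line of embryonic stem cells, and every library came from cells given doxycycline for 3 days. Cells without Safb and Safb2 (double knockout) went through precipitation with the SAFB1 antibody in 2 libraries, made from clones 4 and 13. FLAG antibody was used on double-knockout clone 13 with a plasmid for full-length SAFB1 (1 library) or for eGFP (1 library). The SAFB1 antibody was also used on wild-type cells in 3 libraries, made from the parental cells and clones 20 and 44, and IgG served as the control antibody in 2 libraries, of the wild-type parental cells and clone 20. For the library with the SAFB1 plasmid the genotype field reads wild type, and its title was followed here. The double knockout is represented by 2 clones, and by 1 of them in the FLAG libraries. The list analysed here gives 1 set of positions for the series, with no value per library, so depth is unknown, no value below has replicates, and no contrast of antibody or genotype and no marker level of the cell type could be measured. Intervals are 95% Wilson intervals, which treat peaks or genes as independent and cover counting error only, and no test was run on any difference below.

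Among the exonic helicase peaks, that on exon 2 of Ddx21, which encodes a nucleolar helicase, held most of the 6-base purine sequences searched for below. It was also richer in purines than the rest of its transcript. The middle of that peak spans 3 neighbouring copies of a 111-base repeat, shown here 5′ to 3′ as read from the annotated transcript, with runs of at least 6 purines in capitals. All coordinates are mm10, and Ddx21 lies on the minus strand.
Ddx21 copy 1, chr10:62598520-62598630, minus strand: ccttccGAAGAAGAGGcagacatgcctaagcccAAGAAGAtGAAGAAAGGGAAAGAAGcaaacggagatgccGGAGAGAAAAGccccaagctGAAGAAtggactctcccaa
Ddx21 copy 2, chr10:62598409-62598519, minus strand: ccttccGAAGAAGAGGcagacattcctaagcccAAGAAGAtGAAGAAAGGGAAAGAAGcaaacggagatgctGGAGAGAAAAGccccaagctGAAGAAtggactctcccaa
Ddx21 copy 3, chr10:62598298-62598408, minus strand: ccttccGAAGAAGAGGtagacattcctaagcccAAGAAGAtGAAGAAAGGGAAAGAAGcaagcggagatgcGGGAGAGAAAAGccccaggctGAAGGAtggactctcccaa

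The second copy matched the first at 98.2% of bases and the third at 94.6%. For Ddx10 and Ddx18, which encode helicases of ribosome assembly, the coding bases of the named exon that lie under the peak are shown. They are further examples of peaks richer in purines than the rest of their transcripts. The part of the exon 4 peak of Ddx21 that lies in the exon is added as a contrast, with fewer such runs for its length. Its longest run, of 16 bases, is nevertheless longer than those of the Ddx10 (9 bases) and Ddx18 (8 bases) stretches.
Ddx10 exon 14, chr9:53159898-53160017, minus strand: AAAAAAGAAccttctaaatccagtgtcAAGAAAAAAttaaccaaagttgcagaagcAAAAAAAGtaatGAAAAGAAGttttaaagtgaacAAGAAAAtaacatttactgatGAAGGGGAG
Ddx18 exon 3, chr1:121564493-121564578, minus strand: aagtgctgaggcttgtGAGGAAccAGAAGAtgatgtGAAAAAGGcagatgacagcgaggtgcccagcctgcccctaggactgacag
Ddx21 exon 4, chr10:62593962-62594140, minus strand: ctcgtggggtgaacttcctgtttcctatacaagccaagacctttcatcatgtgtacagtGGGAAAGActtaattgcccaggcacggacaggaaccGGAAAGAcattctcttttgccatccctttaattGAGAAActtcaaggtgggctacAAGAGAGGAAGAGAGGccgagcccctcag

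Of the 53 helicase genes 17 held at least 1 peak (32.1%, interval 21.1 to 45.5), against 26.2% of all protein-coding genes. Longer genes hold more peaks in this list, so each helicase gene was also set beside the other protein-coding genes whose length lay within 20% of its own. Summed over the 53 genes, those genes of like length would give 14.1 genes with a peak and 27.3 peaks, where 17 genes and 32 peaks were observed. Without Dhx29, the gene with most peaks, 27 peaks were observed and like length gives 26.7. The helicase genes are thus near what their length alone gives, and the 53 genes together held 20.2 peaks in each Mb, against 17.8 in other protein-coding genes within the same range of lengths. Expression was not measured in this list, so all such comparisons are relative to length only. No peak of a helicase gene lay in a second gene of the same strand. Of the 17 genes 9 held exactly 1 peak (52.9%, against 47.3% of all protein-coding genes with a peak). The other 8 held 2 or more (15.1% of the 53, against 13.8% of all protein-coding genes).

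**Figure D1:**
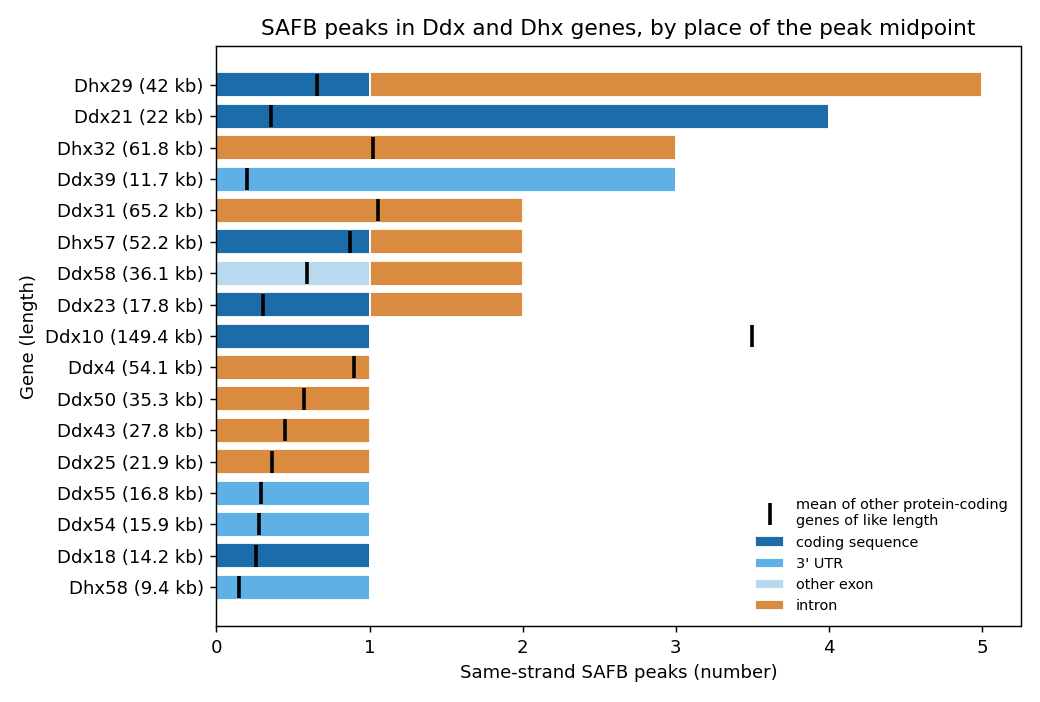
Number of same-strand SAFB peaks in each of the 17 Ddx and Dhx genes with a peak (bars, coloured by where the peak midpoint lay), with the mean number in other protein-coding genes of like length (black ticks). Dhx29 and Ddx21 held 5 and 4 peaks and stand above their ticks, while Ddx10, the longest gene, held 1 peak against a mean of 3.49.

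By length class the helicase genes lay on either side of other genes. Between 10 and 20 kb, 5 of 13 helicase genes had a peak (38.5%, interval 17.7 to 64.5), against 18.4% of 3992 other protein-coding genes. Between 30 and 50 kb it was 3 of 13 (23.1%, interval 8.18 to 50.3), against 34.3% of 2642 others. With so few genes in a class each interval is wide, and the share of other genes lay inside the interval of the helicase genes in all 5 classes.

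**Figure D2:**
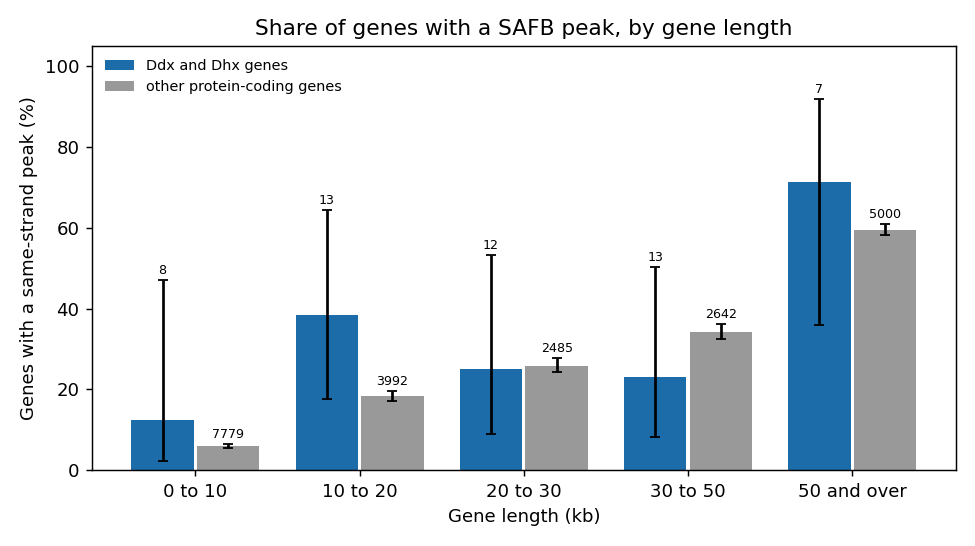
Share of genes with a same-strand SAFB peak (%) by gene length in kb, for Ddx and Dhx genes (blue) and other protein-coding genes (grey), with 95% Wilson intervals as error bars and the number of genes above each bar. The intervals of the helicase genes cover the grey share in each of the 5 length classes.

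Helicase peaks lay in exons more often than the length of the exons gives. Midpoints fell in an exon for 16 of the 32 peaks (50%, interval 33.6 to 66.4), while exons made up 20.6% of the length of the same genes, each gene weighted by its peaks. In other protein-coding genes of the same range of lengths 23.6% of 9879 peaks were exonic (interval 22.7 to 24.4), with 15.1% from exon length. Of these 16 midpoints 9 were in protein-coding sequence, 6 were in the 3′ untranslated region and 1 was in an exon that only a non-coding transcript has. Of the 53 genes 11 had an exonic peak (20.8%), against 9.72% of all protein-coding genes and 5.42 genes from like length. Of the 16 intronic peaks 5 reached into an exon, so 21 of the 32 peaks touched an exon by at least 1 base (65.6%), against 33.8% in other genes of the same lengths. An exon here is one of any annotated transcript, so spliced and unspliced RNA cannot be told apart.

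The exonic share rests in part on 2 genes. Ddx21 and Ddx39 held 7 of the 16 exonic peaks, and without them 9 of 25 were exonic (36.0%), against 17.3% from exon length. Narrow and wide peaks also differed. Of the 13 peaks of 596 bases or more, the median width in the list, 4 were exonic (30.8%), with 15.9% from exon length, and 12 of the 19 narrower ones (63.2%), with 23.9% from exon length. In all other protein-coding genes, of any length, the order was the opposite. There 16.3% of wide peaks were exonic, with 10.2% from exon length, and 12.6% of narrow peaks, with 8.42% from exon length. Exonic peaks of helicase genes had a median width of 305 bases, against 779 in other protein-coding genes, and their intronic peaks one of 744.5 bases, against 647.

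**Figure D3:**
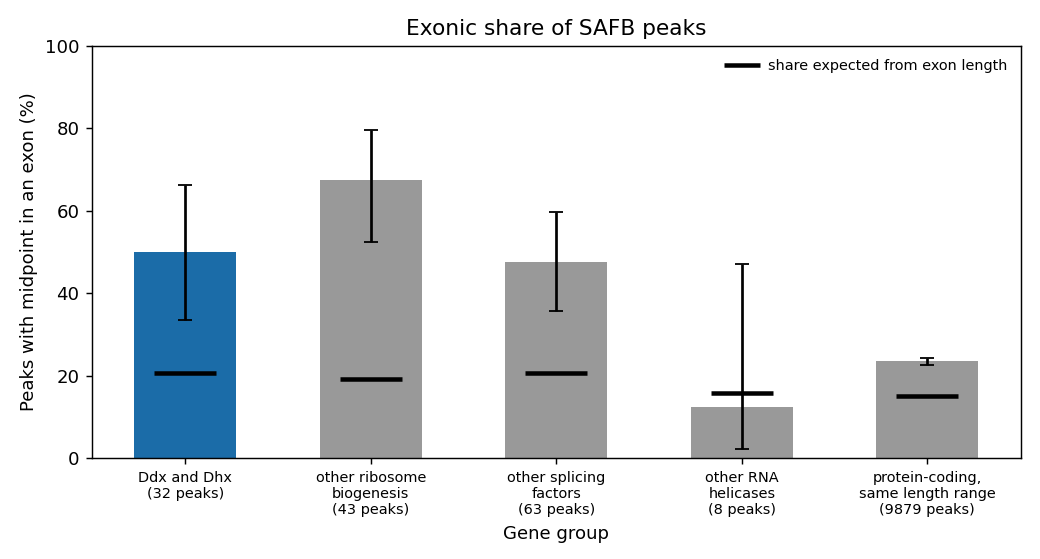
Share of same-strand SAFB peaks with midpoint in an exon (%) in the Ddx and Dhx genes, 3 other gene lists and the protein-coding genes of the same length range, with 95% Wilson intervals and, as black lines, the share expected from exon length. The helicases, with 50%, lie above their line, as do ribosome biogenesis genes with 67.4% and splicing factors with 47.6%, while the 8 peaks of other RNA helicases, with 12.5%, lie below their line of 15.9%.

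Helicases of ribosome biogenesis had a peak in 7 of 15 genes (46.7%, interval 24.8 to 69.9), where like length gives 3.68. Of their 11 peaks 8 were exonic (72.7%, interval 43.4 to 90.3), with 20.3% from exon length, and 4 of these 8 lay in Ddx21 alone. Ddx21 held 4 peaks in 22.0 kb (ENSMUSG00000020075.8, chromosome 10, 62580251 to 62602281, minus strand), where genes of like length held 0.359 on average. The 4 midpoints lay in exons 1, 2, 3 and 4 of 15, at 137 bases and at 3.72, 7.20 and 8.22 kb from the gene start, and the 11 later exons had none. The widths were 89, 711, 160 and 233 bases. Of the 4 helicase genes with at least 3 peaks, Ddx21 and Ddx39 had every peak in an exon, as did 2.15% of all protein-coding genes with at least 3 (41 of 1903). With at least 4 peaks it was 13 of 1325 genes, Ddx21 among them. These counts cover genes of any length and were not matched for length or exon content. Exons made up 23.5% of the length of Ddx21 and 44.0% of that of Ddx39.

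The exon 2 peak of Ddx21, with the repeat shown above, was the widest of the 4 and covered 660 exonic bases. A peak on the opposite strand (chromosome 10, 62598240 to 62598914) overlapped 675 of its 711 bases (94.9%). Among the 32 helicase peaks it was the only one overlapped by a peak of the other strand, against 4.63% of peaks in other protein-coding genes. Neighbouring Ddx50, which encodes a close relative of Ddx21 and ends 13613 bases upstream of its start on the same strand, held 1 peak of 835 bases in intron 7, 2313 bases from the nearest exon.

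Ddx31, a nucleolar helicase gene of 65.2 kb, held 2 peaks in intron 19, of 654 and 1302 bases, and the first of them covered 163 bases of exon 19. Ddx10, the longest member at 149.4 kb, held a single peak of 228 bases at exon 14 of 18, where like length gives a mean of 3.49 peaks. Ddx18, Ddx54 and Ddx55, which act in assembly of the large ribosomal subunit, held 1 exonic peak each. That of Ddx18 was 87 bases wide and lay on exon 3 of 13, while those of Ddx54 (140 bases) and Ddx55 (455 bases) lay in the last exon, with midpoints in the 3′ untranslated region. Of the 50-base stretches of the Ddx18 peak 62.2% also occur in Gm16433, a processed pseudogene on chromosome 6 that held no peak. The source of the reads of that peak is therefore uncertain, since how reads with several matches were treated is not given in the sources used here. No 50-base stretch of the other 15 exonic peaks occurs in a transcript of another gene. The ribosome biogenesis members with no peak were Ddx24, Ddx27, Ddx47, Ddx49, Ddx51, Ddx52, Ddx56 and Dhx37.

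**Figure D4:**
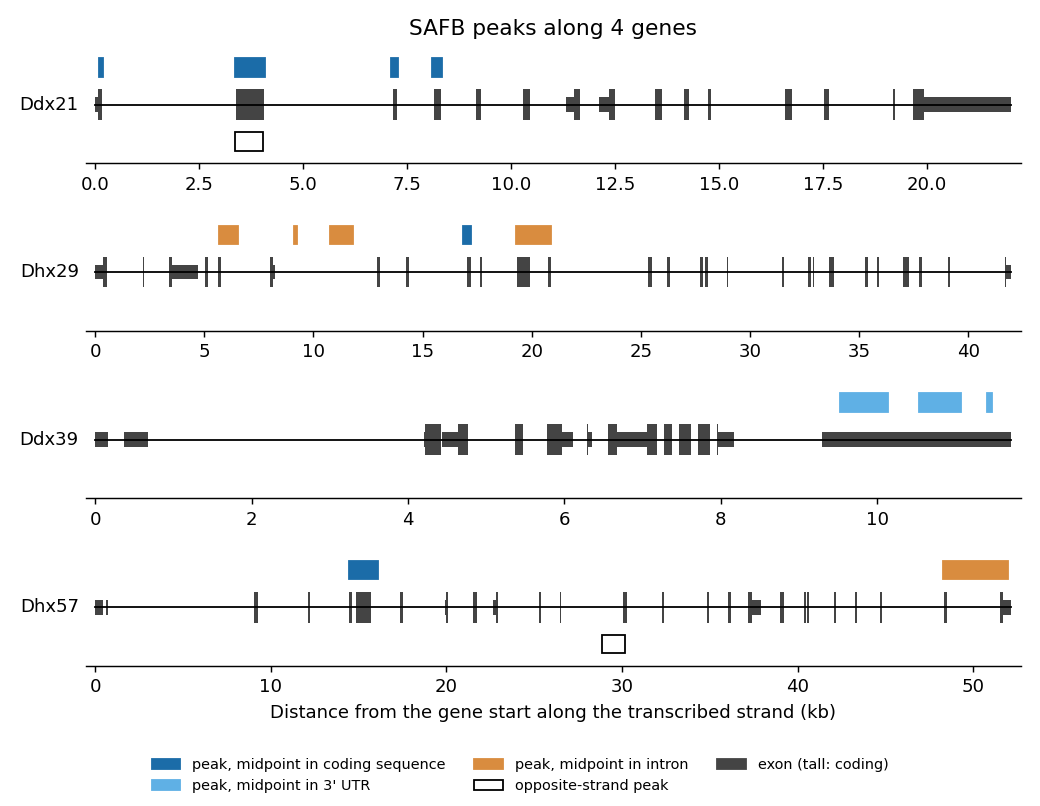
SAFB peaks along Ddx21, Dhx29, Ddx39 and Dhx57, by distance from the gene start along the transcribed strand (kb), with exons of all transcripts in dark grey, same-strand peaks above the line and opposite-strand peaks as open boxes below it. The 4 peaks of Ddx21 sit on its first 4 exons, the 5 of Dhx29 in the first part of the gene and the 3 of Ddx39 on its last exon.

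Splicing helicases had a peak in 2 of 13 genes (15.4%, interval 4.33 to 42.2), where like length gives 3.12. Ddx39, which encodes a helicase of mRNA export and splicing, had the highest density of the family, 0.256 peaks per kb (11.7 kb, chromosome 8, 83715177 to 83726892, plus strand). Its 3 peaks of 624, 539 and 74 bases all lay wholly in the last exon, in the 3′ untranslated region, between 9.83 and 11.4 kb from the gene start. No 50-base stretch of these peaks occurs in an annotated transcript of Ddx39b or of any other gene, and Ddx39b itself had no peak on its own strand. Ddx23, which encodes a helicase of the spliceosome, held a peak of 177 bases on exon 3 of 17 and one of 78 bases in intron 3, 779 bases from the nearest exon. The other 11 splicing helicases, Ddx5, Ddx17, Ddx39b, Ddx41, Ddx42, Ddx46, Dhx8, Dhx15, Dhx16, Dhx35 and Dhx38, had none. Among genes of like length 38.5% had a peak for Ddx46, and 47.3% for Dhx35.

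Helicases of RNA export, translation and decay had a peak in 2 of 10 genes, where like length gives 2.55. Dhx29, which helps ribosomes scan structured mRNAs, held the most peaks of the family, 5 in 42.0 kb (chromosome 13, 112927454 to 112969432, plus strand), against a mean of 0.657 in genes of like length. They were 901, 103, 1055, 377 and 1589 bases wide and lay between 6.11 and 20.1 kb from the gene start, in the stretch from 14.5% to 47.8% of the gene. The midpoint of the fourth was in coding exon 9 of 27. Those of the others were intronic, although the first covered 121 bases of exon 5 and the fifth 726 bases of exons 11 and 12. Ddx25, a testis helicase gene, held 1 peak of 247 bases in intron 4. Ddx1, Ddx3x, Ddx3y, Ddx6, Ddx19a, Ddx19b, Ddx20 and Dhx34 had none. Reads of close copies, such as Ddx3x and Ddx3y or Ddx19a and Ddx19b, may be lost or split in mapping, so their lack of peaks is uncertain.

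Sensors of viral RNA had a peak in 2 of 3 genes (66.7%, interval 20.8 to 93.9), where like length gives 1.08. Ddx58, which encodes the sensor RIG-I, held a peak of 1798 bases that covered 1410 bases annotated as exon, of which 260 are coding, and 1 of 251 bases in intron 15. The midpoint of the wide peak lay in intron 4 of the longest coding transcript and in an exon of a non-coding one. Dhx58, which encodes the related protein LGP2 and spans 9.4 kb, held 1 peak of 443 bases on the last of its 13 exons, with its midpoint in the 3′ untranslated region. Ddx60, at 110.2 kb the longest member with no peak, had none, while 63.8% of genes of like length had one. Of the helicases of structured nucleic acids (Ddx11, Dhx9 and Dhx36) and of mitochondrial RNA (Ddx28 and Dhx30), none held a peak, where like length gives 0.910 and 0.355 genes.

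Both germline genes held 1 intronic peak each (2 of 2, interval 34.2 to 100%), where like length gives 0.715 genes with a peak and 1.34 peaks. That of Ddx4, the mouse homologue of Vasa and a marker of germ cells, was 1397 bases wide in intron 15, 3225 bases from an exon, and that of Ddx43 was 1059 bases wide in intron 6 and covered 276 exonic bases. Among the 5 members outside the role lists, Dhx32 held 3 intronic peaks of 74, 365 and 110 bases, at 30.4%, 84.8% and 85.7% of the gene. Dhx57 held a peak of 1671 bases over exons 4 and 5 and a peak of 3697 bases at 96.1% of the gene, which ranked 26 by width among all 30998 peaks. Ddx59, Dhx33 and Dhx40 had none. After Ddx60 and Dhx35, the longest members with no peak were Ddx46 (46.2 kb), Dhx15 (40.3 kb) and Dhx36 (39.0 kb).

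Genes named Ddx and genes named Dhx were also set side by side, a split by gene name only. A peak was present in 13 of 37 Ddx genes (35.1%, interval 21.8 to 51.2), against 4 of 16 Dhx genes (25%, interval 10.2 to 49.5), where like length gives 9.25 and 4.88. Density was 20.1 peaks per Mb in Ddx and 20.3 in Dhx genes. Of the Ddx peaks 13 of 21 were exonic (61.9%, interval 40.9 to 79.2), with 24.3% from exon length. Of the Dhx peaks 3 of 11 were exonic (27.3%, interval 9.75 to 56.6), with 13.6% from exon length. These intervals overlap, and 4 Dhx genes carry all Dhx peaks.

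The exonic share of 50% in the helicase genes can be set beside that of other genes for RNA handling. Other ribosome biogenesis genes had a peak in 18 of 74 (24.3%, interval 16.0 to 35.2), where like length gives 16.0. They held 43 peaks, where it gives 26.8, and 29 of these were exonic (67.4%, interval 52.5 to 79.5). Nop14 held 7, of which 6 were exonic, Esf1 held 6, all exonic, and Lyar held 6, of which 5 were exonic. Most of the exonic peaks of that list thus lay in these genes, and exon length gives an exonic share of 19.3% for the list. Other splicing factors had a peak in 22 of 69 (31.9%), where like length gives 16.8. They held 63 peaks, where it gives 36.9, with 11 in Cwc27, and 30 were exonic (47.6%, interval 35.8 to 59.7). RNA helicases with other names had a peak in 5 of 22 (22.7%), where like length gives 7.64, and 8 peaks in all, where it gives 22.1. Ascc3 held the most, 3 intronic peaks, and 1 of the 8 peaks was exonic (12.5%, interval 2.24 to 47.1), with 15.9% from exon length.

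Along the gene the helicase peaks had a median position of 44.2% of its length (quartiles 30.1 and 85.0), against 53.1% (27.7 and 77.3) in other genes of the same lengths. The last 20% of the gene held 12 of 32 peaks (37.5%), against 22.1%, and 3 of those 12 belong to Ddx39. Intronic peaks lay at a median of 950.5 bases from the nearest exon, against 2316.5 bases in the other genes. Weighted by peaks, exons made up 20.6% of the length of the helicase genes and 15.1% of that of the others. No distance expected from intron length was computed, so closeness to exons beyond gene structure was not tested. Every one of the 9 peaks in coding sequence ran past the edge of its exon, whereas 34.6% of coding peaks in other protein-coding genes lay wholly in exons. That of Ddx18 did so only slightly, with 86 of its 87 bases exonic. The exonic part of the 9 peaks had a median of 120 bases, against 587 for coding peaks of the other genes.

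The name of each peak ends in a number that rises along its chromosome and strand, so gaps show how many numbers are missing from the list between a pair of peaks. The 4 peaks of Ddx21 carry consecutive numbers, as do the 3 of Ddx39 and the 2 of Ddx23 (100% in each span). The share was 66.7% in Ddx31 (2 of 3 numbers), whose peaks are both intronic, 50% in Dhx29 (5 of 10 numbers), 27.3% in Dhx32, 16.7% in Ddx58 and 11.1% in Dhx57.

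Exonic helicase peaks held 58.4% purines on average, against 53.6% in the remaining bases of their transcripts. The mean difference was 4.74 ± 8.07 percentage points (SD over 16 peaks). In other protein-coding genes the difference was 2.93 ± 6.29 points (SD over 2867 peaks). The helicase peaks were unlike each other. In Ddx23 the peak held 76.6% purines against 55.5% in the rest, in Ddx10 70.0% against 56.8%, and in Ddx18 64.0% against 52.4%. Outside coding sequence, the 74-base peak of Ddx39 in the 3′ untranslated region held 62.2% against 52.8%. The peaks on exons 1 and 2 of Ddx21 held 68.9% and 67.4%, 14.7 and 15.2 points above the rest, whereas those on exons 3 and 4 held 52.6% and 53.1%, with differences of -1.76 and -1.34 points. Against the rest of the coding sequence alone, the differences of these 4 peaks were 9.70, 10.8, -6.96 and -6.78 points. In all, 10 of 16 peaks were above the rest of their transcript (62.5%), against 68.9% in other genes, and the median difference was only 0.64 points, against 2.61. The peak of Dhx58 was lowest, at 47.9% against 53.8%.

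**Figure D5:**
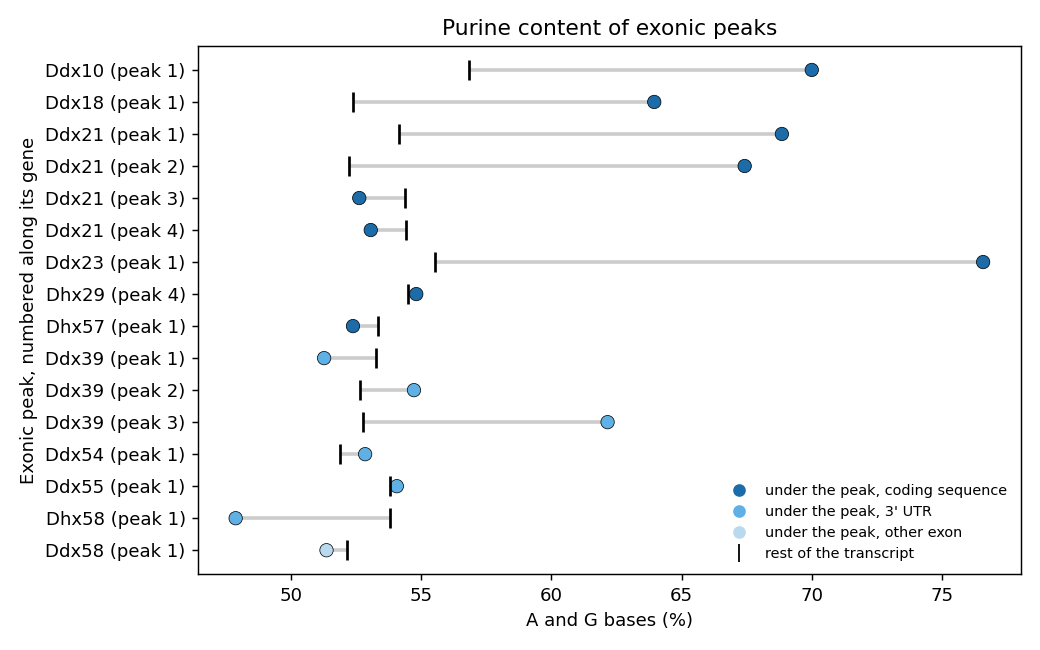
Share of A and G bases (%) in the exonic part of each of the 16 exonic helicase peaks (circles, coloured by place) and in the rest of the same transcript (black ticks). Ddx10, Ddx18, Ddx23 and the first pair of Ddx21 peaks lie over 10 points above their ticks, and most other peaks lie close to theirs.

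A search was made for AGAAGA, for its shifted form GAAGAA, and for the next shift, which reads AAGAAG, on the transcribed strand and with overlapping matches counted. These hexamers were chosen with earlier results of this list known, in which they ranked highest. The exon 2 peak of Ddx21 held 30 of the 40 in its transcript (75%) in 13.98% of its length, and copies 1, 2 and 3 of the repeat shown above held 8, 8 and 7 of them. By their number the peak ranked 14 among 2883 exonic peaks of protein-coding genes. The other 3 peaks of Ddx21 held none. Ddx55 followed with 6, Dhx57 with 3, and Ddx10, Ddx18, Ddx23, Ddx39, Ddx58 and Dhx29 with 1 each. At least 1 was present in 9 of the 16 peaks (56.2%), against 71.2% of exonic peaks in other protein-coding genes, whose exonic part is longer (median 622 bases, against 172.5).

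Some helicase genes had peaks just past their ends or on their other strand. Within 5000 bases past the gene end, in no other gene of that strand, 8 of 53 helicase genes had a peak, against 9.3% of all protein-coding genes. They were Ddx11, Ddx18, Ddx42, Ddx51, Ddx56, Dhx32, Dhx36 and Dhx37, and only that of Ddx18 began inside the gene, its midpoint 578 bases past the end. Antisense peaks lay in 5 of the 53 genes, against 12.5%: 3 in Ddx19a and 1 each in Ddx21, Ddx39b, Ddx58 and Dhx57. A peak within 5000 bases before the gene start was found for Ddx4 alone, against 2.14% of all protein-coding genes.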

How the data were processed

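The data are a list of 30998 peaks with 6 columns and no header. A score column deposited by the authors holds only the value 500 and was not used. The submitters' processing notes name mm10, STAR, Subread and featureCounts, without versions. For the peak caller, its threshold and any pooling of libraries, nothing is stated in these sources, and library depth is unknown. Starts were taken as counted from 0. Gene models and transcript sequences came from GENCODE M21 (55450 genes). Intronic sequence was not used here.

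Peaks were placed by midpoint with Python 3.11.15, pandas 2.3.3 and NumPy 2.4.6, and intervals were computed with SciPy 1.17.1. Placement and the like-length count were tested on simulated peaks. Each exonic peak was read from the transcript holding most of its bases. The members, role lists, comparison lists and hexamers were chosen with earlier results of these data known. All members with a peak are named, as are the longest without one, and the leading genes of other lists, apart from some items not reported here. No test between libraries or groups was possible from 1 list of positions.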

Additional observations from a re-analysis of the deposited data

How the results depend on the processing

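Across 28 recomputations 23 stayed close to the reported value. Close means within 1.5 times for counts, inside the reported interval for the exonic share, and within 1 SD and of the same sign for purines. The SD for purines was 8.07 points, so that limit is wide. Part of the closeness was fixed in advance. Leaving out peaks in more than 1 same-strand gene removed no helicase peak. Other ways of picking genes of like length, or of taking the share by exon length, change only the expected value. Like length within 10% gave 14.3 genes and the 100 nearest genes 13.65, beside the 17 observed. Restricted to peaks of median width or more, 9 genes and 13 peaks counted (like length gives 10.2 and 15.6). Of these peaks 30.8% were exonic (4 of 13), with 15.9% from exon length. In other protein-coding genes of any length it was 16.3%, with 10.2% from exon length. Within the limit but lower, the 4 peaks wholly inside 1 exon were 2.61 points richer in purines than the rest, against 1.83 points in other genes. With at least 2 peaks required, 8 genes counted (like length gives 5.82). Counting any overlap of at least 1 base, 66.7% were exonic. Exons of protein-coding transcripts alone gave 46.9%, and each gene counted once 51.2%. Leaving out Ddx21 and Ddx39, counting each gene once, taking only narrow peaks and comparing within coding sequence (4.95 points of purines, 9 peaks) were chosen after seeing the data. The same 9 peaks were 7.98 points richer in purines than the rest of their whole transcripts. Within coding sequence 5 of the 9 lay above the rest. In other protein-coding genes the difference within coding sequence was 1.60 points, with 827 of 1404 peaks above the rest. No paired analysis was possible because the list holds no value per library. For the same reason no library could be left out, and depth limits cannot be stated.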
